A study of Mus musculus with 6 samples.

Results

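Most of the genes described here encode the machinery that moves newly made secretory and membrane proteins into the endoplasmic reticulum (ER) and between the ER and the Golgi. They were taken by symbol from the 21887 mouse protein-coding genes on the numbered chromosomes, X and Y in RefSeq's GRCm38.p6 table: every symbol that starts with Sec, Tmed or Ssr followed by a digit, or with Trappc or Spcs, and 11 named COPI coat and Sar1 genes. This gave 73 members. The rule reads symbols alone, so it also took genes such as Sec14l1, a lipid-binding protein. It was set with earlier results of these data known. A gene counts as marked in a library when a peak of that library's list overlaps the 1000 bp on either side of either end of the gene.

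Islets came from 16-week-old mice, and ATAC-seq, which cuts open DNA with the Tn5 transposase, was run on 6 libraries in 3 groups of 2. In the knockout-Acsl4 group, islets of βRicKO mice, which lack Rictor in beta cells, received an adenovirus carrying Acsl4. Islets of the knockout-GFP group were also βRicKO and received a GFP adenovirus, and those of the control-GFP group were wild type and received the same GFP virus, so all 3 groups carried an adenovirus, left on for 48 h outside the animal. About 50 hand-picked islets entered each library, and islets hold other cells besides beta cells; the labels given here do not name the Cre driver or say whether the libraries come from different animals.

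Beta cells send large amounts of insulin along this route. A signal sequence takes the growing chain to the Sec61 channel, the TRAP complex assists its entry, and signal peptidase removes the signal. COPII vesicles then carry cargo out of the ER, the p24 proteins (Tmed) help to select it, COPI vesicles return material from the Golgi, and TRAPP complexes tether vesicles and activate Rab GTPases. Many of these genes are induced by the unfolded protein response, through the transcription factors XBP1 and ATF6.

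Peaks numbered 525 and 5874 in the lists labelled knockout-Acsl4 1 and 2. There were 2206 and 4257 under the labels knockout-GFP 1 and 2, and 4442 and 1628 under control-GFP 1 and 2. The sources used here do not give read depth, so list length is reported instead. A missing peak therefore means that none was called, not that the DNA was closed. Rictor had no peak in any library. Peaks inside Acsl4 numbered 0 in both libraries labelled knockout-Acsl4. They numbered 6 and 0 under knockout-GFP 1 and 2, and 7 and 0 under control-GFP 1 and 2. Peaks at Acsl4 thus did not follow the virus named in the labels, and each library is called here by its label. Of 12 islet endocrine markers, Mafa and Nkx6-1 were marked, in the libraries labelled knockout-GFP 2 and control-GFP 1, and Ins1, Ins2 and Gcg in none. None of 5 acinar, 3 ductal, 3 endothelial, 3 stromal and 3 immune markers was marked in any library. Over all 29 markers the share was 6.9% under knockout-GFP 2 and 6.9% under control-GFP 1. The shares of all genes there were 17.3% and 16.7%, so the markers do not show which cells gave the peaks.

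The promoters below show what DNA the peaks lay on. They belong to the members marked in the most libraries, Trappc11 and Sec16a, and to the member with the highest mean score percentile in each of the other steps, among members marked in at least 2 libraries whose promoter is in the RefSeq table (GRCm38.p6). Each line gives the 250 bases before the start site, 5′ to 3′ on the gene's strand. Capitals mark matches on either strand to GGGCGG (SP1), CCAAT (NFY), AAGATGGC (YY1) and CCGGAAG (ETS) only. The short CCACG, also searched and counted below, is left in lower case where it occurs.
Trappc11: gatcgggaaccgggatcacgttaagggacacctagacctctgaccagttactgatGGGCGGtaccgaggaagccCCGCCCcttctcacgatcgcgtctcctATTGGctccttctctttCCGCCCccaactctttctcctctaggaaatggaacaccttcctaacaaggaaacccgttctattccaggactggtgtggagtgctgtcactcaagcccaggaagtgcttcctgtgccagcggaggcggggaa
Sec16a: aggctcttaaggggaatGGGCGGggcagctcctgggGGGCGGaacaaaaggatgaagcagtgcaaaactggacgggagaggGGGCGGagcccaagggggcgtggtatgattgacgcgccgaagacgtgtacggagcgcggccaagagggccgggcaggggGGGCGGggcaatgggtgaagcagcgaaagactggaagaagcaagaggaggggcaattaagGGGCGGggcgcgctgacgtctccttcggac
Sec61a2: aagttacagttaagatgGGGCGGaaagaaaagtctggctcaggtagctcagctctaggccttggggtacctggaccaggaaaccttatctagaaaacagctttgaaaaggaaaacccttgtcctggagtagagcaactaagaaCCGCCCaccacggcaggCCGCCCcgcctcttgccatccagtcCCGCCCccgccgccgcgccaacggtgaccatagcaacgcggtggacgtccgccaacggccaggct
Ssr3: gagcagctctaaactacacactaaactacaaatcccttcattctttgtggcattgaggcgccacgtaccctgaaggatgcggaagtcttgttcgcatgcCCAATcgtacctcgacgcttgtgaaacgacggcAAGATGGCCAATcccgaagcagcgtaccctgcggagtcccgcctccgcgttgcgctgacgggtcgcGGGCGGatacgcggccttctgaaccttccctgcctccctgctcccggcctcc
Spcs1: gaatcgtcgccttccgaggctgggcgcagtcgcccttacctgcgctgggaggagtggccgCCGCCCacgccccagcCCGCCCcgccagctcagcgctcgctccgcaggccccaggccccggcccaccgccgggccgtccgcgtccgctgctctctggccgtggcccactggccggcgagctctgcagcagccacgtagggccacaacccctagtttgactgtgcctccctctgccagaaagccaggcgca
Tmed3: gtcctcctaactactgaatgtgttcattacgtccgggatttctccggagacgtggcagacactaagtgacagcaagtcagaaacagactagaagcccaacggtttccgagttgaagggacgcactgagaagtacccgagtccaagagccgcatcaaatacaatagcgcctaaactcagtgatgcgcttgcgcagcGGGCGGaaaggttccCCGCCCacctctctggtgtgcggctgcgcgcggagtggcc
Copz1: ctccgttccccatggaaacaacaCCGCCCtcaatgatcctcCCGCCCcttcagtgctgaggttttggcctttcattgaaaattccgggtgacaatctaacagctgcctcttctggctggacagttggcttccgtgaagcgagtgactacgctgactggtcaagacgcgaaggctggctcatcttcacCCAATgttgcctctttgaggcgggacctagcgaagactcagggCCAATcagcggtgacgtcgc
Sec14l1: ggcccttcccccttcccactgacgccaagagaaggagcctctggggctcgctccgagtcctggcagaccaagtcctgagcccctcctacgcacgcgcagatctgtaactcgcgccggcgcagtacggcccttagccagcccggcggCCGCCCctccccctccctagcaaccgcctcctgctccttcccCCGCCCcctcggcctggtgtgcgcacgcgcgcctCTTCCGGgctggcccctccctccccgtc

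These stretches lie at chr8:47533471-47533720 (minus strand) for Trappc11, chr2:26445217-26445466 (minus) for Sec16a, chr2:5895433-5895682 (minus) for Sec61a2 and chr3:65392554-65392803 (minus) for Ssr3. Those of the other four are chr14:31001667-31001916 (minus) for Spcs1, chr9:89705044-89705293 (minus) for Tmed3, chr15:103272638-103272887 (plus) for Copz1 and chr11:117114918-117115167 (plus) for Sec14l1. With the start site as position 0, the Trappc11 peak under knockout-Acsl4 1 covered -168 to -51. Under knockout-GFP 1 and 2 it covered -168 to 34 and -168 to -16, and under control-GFP 1 it covered -232 to 40. All 4 peaks thus held the CCGCCC at -132 to -127 and the ATTGG at -149 to -145, the reverse of GGGCGG and CCAAT. Sec16a has 5 GGGCGG copies in the stretch. Its peak under knockout-Acsl4 1 covered -266 to -155. Under knockout-GFP 1 and 2 the peak covered -395 to -27 and -639 to 9, and under control-GFP 1, which had another at -766 to -532, it covered -402 to -87.

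Peaks of Ssr3 spanned -196 to 6 under knockout-GFP 2 and -184 to 52 under control-GFP 1, over the AAGATGGC at -118 to -111 and both CCAAT copies. Tmed3 was covered on the other side of its start, at -31 to 402 under knockout-GFP 2, and at 1 to 400 and 58 to 236 under control-GFP 1 and 2. The printed bases of Tmed3 therefore lay almost wholly outside its peaks.

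**Figure D1:**
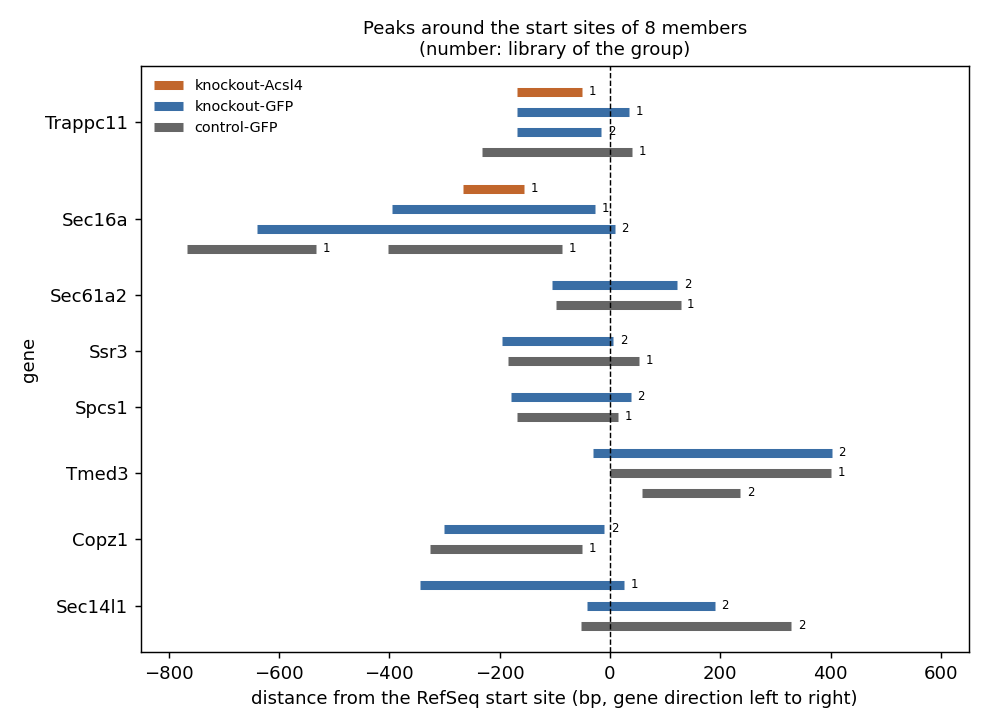
Peaks around the RefSeq start sites of the 8 members whose promoters are printed; the x axis is the distance from the start site in bp, each bar is a called peak and the number beside it is the library within its group. Peaks of a gene overlap between libraries, and those of Trappc11 in 3 libraries begin at the same position, -168.

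Members were marked more often than genes in general in every library but that labelled knockout-Acsl4 2. In the libraries labelled knockout-Acsl4 1 and 2, 3 and 1 of 73 members were marked (4.11%, 95% exact Clopper-Pearson interval 0.856 to 11.5, and 1.37%, 0.0347 to 7.4), against 1.02% and 1.58% of all genes. The libraries labelled knockout-GFP 1 and 2 marked 14 and 33 members (19.2%, 10.9 to 30.1, and 45.2%, 33.5 to 57.3), against 8.20% and 17.3% of all genes. In those labelled control-GFP 1 and 2 the counts were 27 and 4 (37.0%, 26.0 to 49.1, and 5.48%, 1.51 to 13.4), against 16.7% and 2.00%. The intervals cover counting error only, and no test over the members was made. The member share was 4.02, 0.869, 2.34, 2.61, 2.22 and 2.74 times the share of all genes in the same order of libraries. The ratios 4.02, 0.869 and 2.74 rest on 3, 1 and 4 members, and the intervals there include the share of all genes.

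**Figure D2:**
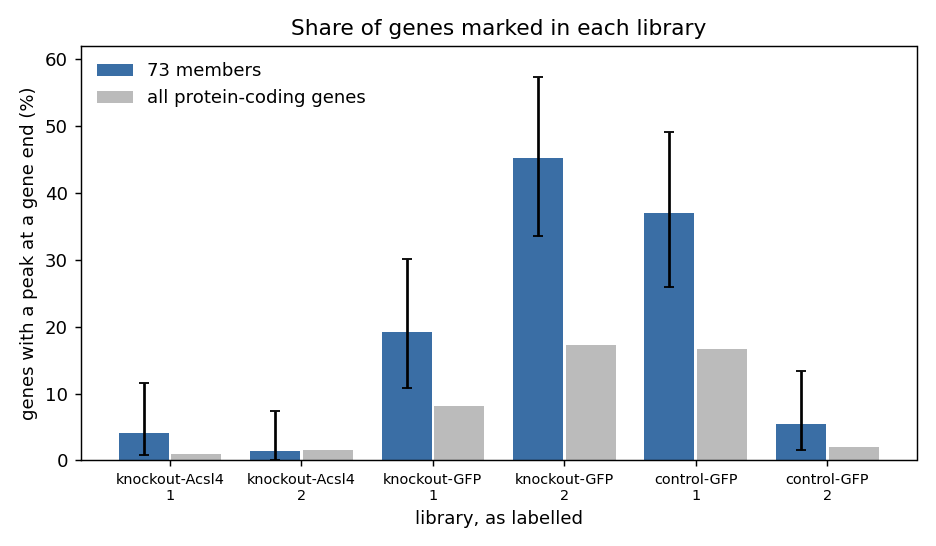
Share of the 73 members and of all protein-coding genes marked at either gene end, in percent, for each library as labelled; error bars are 95% exact intervals. The member share reaches 45.2% in knockout-GFP 2 and 37.0% in control-GFP 1, against 17.3% and 16.7% of all genes.

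The ratio of members to all genes varied with how many peaks were used. With the 500 strongest peaks of each list, 2 and 4 members were marked in the libraries labelled knockout-GFP 1 and 2 and 1 in that labelled control-GFP 1 (2.74%, 5.48% and 1.37%, against 1.76%, 1.79% and 1.79% of all genes). With the 2000 strongest, the counts were 13, 14 and 11 (17.8%, 19.2% and 15.1%, against 7.66%, 8.63% and 8.48%). The ratios were 1.56, 3.06 and 0.767 at 500 peaks and 2.32, 2.22 and 1.78 at 2000, those at 500 resting on 4 members or fewer. A peak's score is the authors' own value, read as −log10 of a q-value, and its percentile ranks it within its own list. The median percentile of the members' peaks was 35.1, 45.7 and 48.3 in these 3 libraries, against 53.2, 51.9 and 54.0 for all peaks at gene ends.

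**Figure D3:**
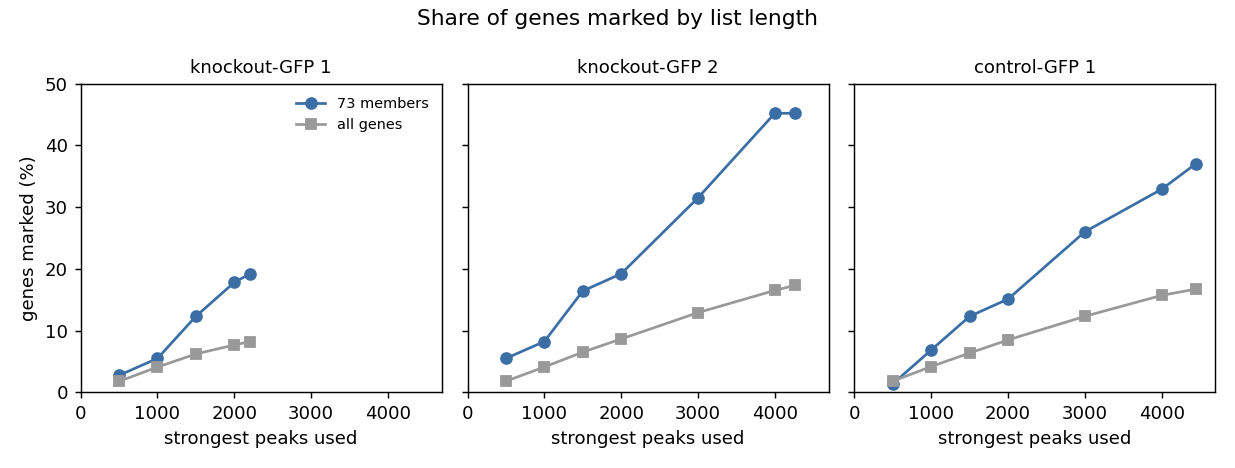
Share of the 73 members and of all genes marked (percent, y axis) when only the strongest peaks of a list are used (x axis, number of peaks), for the 3 libraries that marked the most members. Members lie at 1.37% to 5.48% for 500 peaks and at 15.1% to 19.2% for 2000, against 7.66% to 8.63% of all genes at 2000.

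Recurrence across libraries was likewise above the background. Of the 73 members, 13 (17.8%) were marked in 3 or more libraries, against 6.52% of all genes, and 33 (45.2%) in none, against 75.5%. In 2 libraries were 14 and in 1 library another 13. All 27 members marked in 2 or more libraries had overlapping peaks in every pair of those libraries, 59 of 59 pairs. This overlap was not counted over all genes, so it is not read as a trait of the members. The count of 13 became 2 when knockout-GFP 2 was left out, 3 when control-GFP 1 was and 4 when knockout-GFP 1 was, so it rests on these 3 libraries. The shares were then 2.74%, 4.11% and 5.48%, against 1.70%, 1.71% and 2.36% of all genes.

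**Figure D4:**
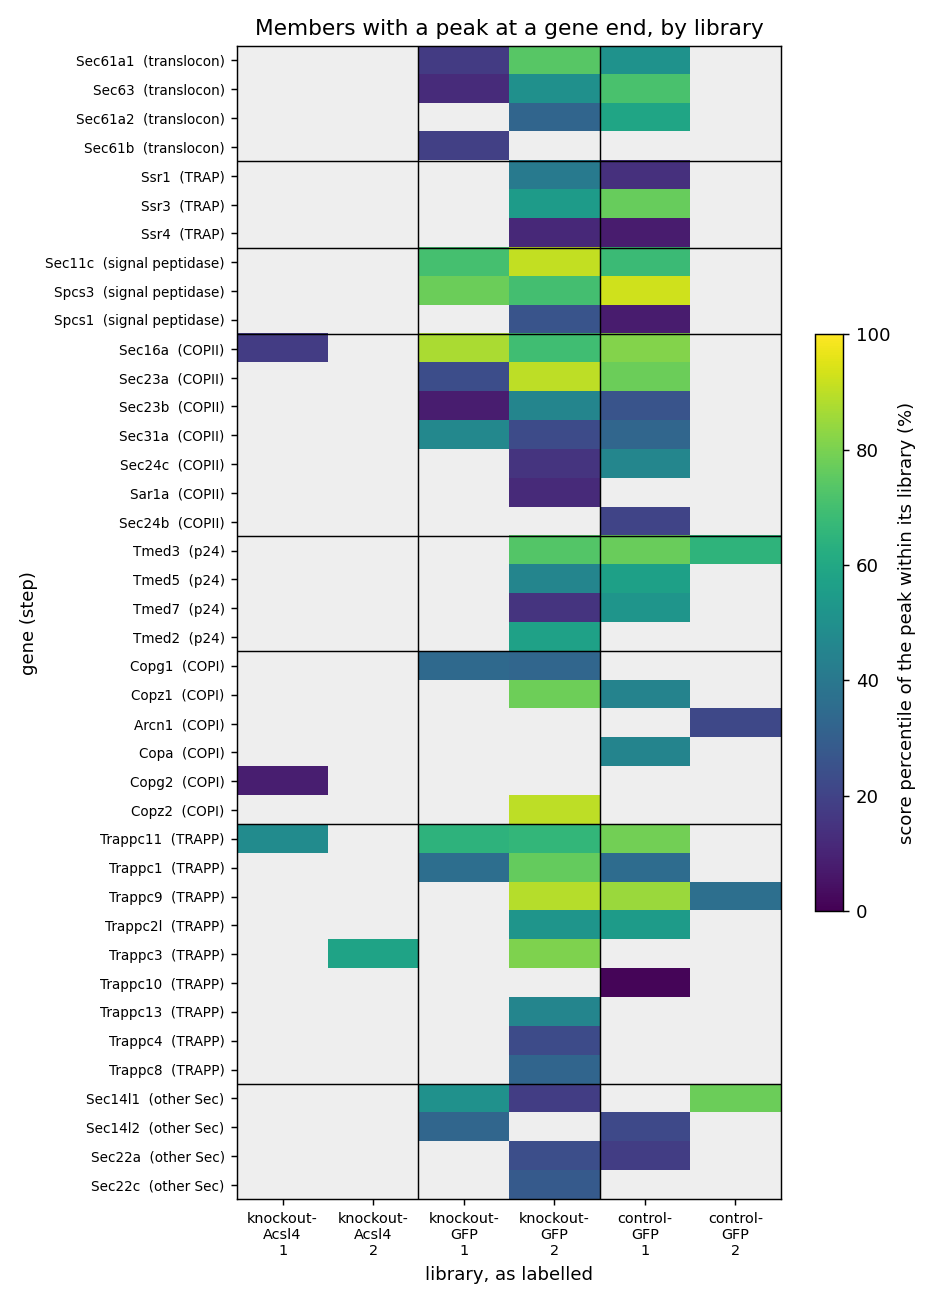
The 40 members marked in at least 1 library (rows, grouped by step) in the 6 libraries as labelled (columns); colour gives the score percentile of the strongest marking peak within its library and grey means that no peak was called. The columns knockout-GFP 2 and control-GFP 1 hold 33 and 27 of the marks.

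Translocon genes form the channel and its helpers. Sec61a1, the channel-forming subunit (chromosome 6, 88503607 to 88518800), had scores of 2.54 and 9.64 in the libraries labelled knockout-GFP 1 and 2 and 5.84 in that labelled control-GFP 1, with no peak in the other three. Its peak in the library labelled knockout-GFP 2 spanned 88518833 to 88519016, just beyond the gene. Sec63, a membrane protein that brings the chaperone BiP to the channel, was marked in the same libraries, with 2.20 and 6.26 under knockout-GFP 1 and 2 and 8.83 under control-GFP 1. The same 3 libraries thus held peaks at these genes. All 3 marked 10 of the 73 members and 1211 of the 21887 genes, so this pattern is not particular to the translocon. Sec61a2, a second channel gene, was marked with 4.68 in the library labelled knockout-GFP 2 and 6.85 in that labelled control-GFP 1, by a peak that also lay at the end of Dhtkd1. Sec61b, a small channel subunit, was marked by a peak of 2.67 in the library labelled knockout-GFP 1, which also lay at the end of Alg2. The small subunit Sec61g and Sec62, a partner of Sec63, were marked in none.

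Of the 4 TRAP genes, Ssr1, Ssr3 and Ssr4 were marked in the libraries labelled knockout-GFP 2 and control-GFP 1 and in no other, and Ssr2 in none. The scores in the library labelled knockout-GFP 2 and then in that labelled control-GFP 1 were 5.46 and 2.83 for Ssr1, the alpha subunit. Ssr3, the gamma subunit, had 6.78 and 10.1, and Ssr4, the delta subunit, 2.97 and 2.18 at an end shared with Idh3g. The same pair of libraries thus held the whole of what was called for TRAP. This pair, without knockout-GFP 1, marked 13 members and 1331 of all genes, so the pattern is common beyond TRAP.

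Among members marked in 2 or more libraries, the signal peptidase genes Spcs3 and Sec11c had the highest mean percentiles and Spcs1 the second lowest. Spcs3, a subunit of the enzyme (chromosome 8, 54520433 to 54529998), had scores of 6.70 and 8.87 in the libraries labelled knockout-GFP 1 and 2 and 18.9 in that labelled control-GFP 1, a mean percentile of 80.2. The peak was 685 bp wide in the library labelled control-GFP 1, against 138 and 458 bp in those labelled knockout-GFP 1 and 2. Sec11c, a catalytic subunit, had 5.89 and 15.1 in the libraries labelled knockout-GFP 1 and 2 and 8.22 in that labelled control-GFP 1, a mean percentile of 76.5. Spcs1 was marked with 4.0 under knockout-GFP 2 and 2.18 under control-GFP 1, at an end shared with Glt8d1, a mean percentile of 16.7. Sec11a, the other catalytic subunit, and Spcs2 were unmarked by the rule. Spcs2 nevertheless had a peak 11231 bp inside the gene in the library labelled knockout-GFP 2 (chromosome 7, 99858898 to 99859109, score 7.77) and 11198 bp inside in that labelled control-GFP 1 (99858941 to 99859142, score 8.90). RefSeq's promoter entry for Spcs2 starts at 99858883, which is 11457 bp inside the gene as the gene table gives it, so these peaks lie on the curated promoter that the gene-end rule misses.

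COPII genes build the coat of vesicles leaving the ER. Sec16a, the scaffold of ER exit sites, was marked in 4 libraries. Its score was 2.24 under knockout-Acsl4 1, 8.61 and 8.79 under knockout-GFP 1 and 2, and 11.5 under control-GFP 1. The midpoints of these 4 peaks lay 762 to 866 bp inside the table's gene start, and the curated start is 1077 bp inside it. Sec23a, which with Sec24 forms the inner coat (chromosome 12, 58958384 to 59012017), had 2.90 and 14.3 in the libraries labelled knockout-GFP 1 and 2 and 10.3 in that labelled control-GFP 1. Its close relative Sec23b had 2.08 and 5.82 in the libraries labelled knockout-GFP 1 and 2 and 3.73 in that labelled control-GFP 1, and Sec31a of the outer coat 4.04, 3.89 and 4.16 in the same order. In these 3 genes the same 3 libraries were called and the others were not. Those 3 libraries all marked 10 members and 1211 of all genes, whatever the others held. Sec24c, a cargo-binding subunit, was marked with 3.14 under knockout-GFP 2 and 5.44 under control-GFP 1. Sec24b was marked in the library labelled control-GFP 1 (3.15) and Sar1a, the GTPase that starts coat assembly, in that labelled knockout-GFP 2 (2.99). Sar1b, Sec13, Sec16b, Sec24a, Sec24d and Sec31b were marked in none.

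Among the 11 p24 cargo receptors, Tmed3 was the most recurrent, scoring 9.45 under knockout-GFP 2 and 10.2 and 2.99 in those labelled control-GFP 1 and 2. Tmed5 had 5.82 and 6.62, at an end shared with Ccdc18, and Tmed7 3.14 and 5.99, at an end shared with Eif1a, in the libraries labelled knockout-GFP 2 and control-GFP 1. Tmed2 was marked in the library labelled knockout-GFP 2 alone (7.06). Tmed1, Tmed4, Tmed6, Tmed8, Tmed9, Tmed10 and Tmed11 were marked in none, and no p24 gene was marked in the library labelled knockout-GFP 1 or in either labelled knockout-Acsl4.

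COPI, the coatomer that returns vesicles to the ER, was marked in scattered libraries. Copz1, a zeta subunit, had scores of 10.5 under knockout-GFP 2 and 5.26 under control-GFP 1. Copg1, a gamma subunit (chromosome 6, 87887819 to 87913595), had 3.33 and 4.72 in the libraries labelled knockout-GFP 1 and 2 and no peak in the other four. The remaining marks were in 1 library each. Copg2, the other gamma subunit, had 1.58 in the library labelled knockout-Acsl4 1 at an end shared with Tsga13, and Copz2, the other zeta subunit, 14.5 in that labelled knockout-GFP 2. Copa, the alpha subunit, had 5.31 in the library labelled control-GFP 1 at an end shared with Ncstn, and Arcn1, the delta subunit, 1.80 in that labelled control-GFP 2. The Copz2 peak lay 835 bp from the gene's 3′ end and not at its start. Copb1, Copb2 and Cope were marked in none.

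TRAPP, the largest step with 15 genes, had at least 1 gene marked in every library. In those labelled knockout-Acsl4 1 and 2 and control-GFP 2 it was a single gene each. Trappc11, a subunit of the complex that acts in ER to Golgi transport and autophagy, scored 3.74 under knockout-Acsl4 1, 5.30 and 8.19 under knockout-GFP 1 and 2, and 10.7 under control-GFP 1. Every one of these peaks also lay at the end of Rwdd4a. Trappc9 (chromosome 15, 72589620 to 73061238), a subunit of the TRAPPII complex, had 13.9 in the library labelled knockout-GFP 2 and 12.8 and 2.20 in those labelled control-GFP 1 and 2. Beyond that end, by 6247, 6253 and 6223 bp, the libraries labelled knockout-GFP 1 and 2 and control-GFP 1 shared a further peak with scores of 4.36, 19.7 and 15.3, at the end of no protein-coding gene. Trappc1, a core subunit, was marked at score percentiles of 36.2 and 76.2 in the libraries labelled knockout-GFP 1 and 2 and 35.2 in that labelled control-GFP 1, at an end shared with Cntrob.

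Trappc3, another core subunit, was the only member marked in the library labelled knockout-Acsl4 2, scoring 1.85, and had 11.1 in that labelled knockout-GFP 2. Trappc2l had 6.54 under knockout-GFP 2 and 6.42 under control-GFP 1 at an end shared with Galns. Single marks fell to Trappc4 (3.89, shared with Rps25), Trappc8 (4.71) and Trappc13 (5.82, shared with Shld3 and Trim23) in the library labelled knockout-GFP 2, and to Trappc10 (1.40) in that labelled control-GFP 1. Trappc2, Trappc3l, Trappc5, Trappc6a, Trappc6b and Trappc12 were marked in none.

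The other 10 genes were grouped only by the Sec prefix. Sec14l1, a lipid-binding protein, had scores of 4.34 and 3.37 in the libraries labelled knockout-GFP 1 and 2 and 3.91 in that labelled control-GFP 2. Peaks of Sec14l1 were thus called in the knockout-GFP pair and in the shorter control list but not in the longer. Its relative Sec14l2 had 3.26 in the library labelled knockout-GFP 1 and 3.34 in that labelled control-GFP 1, at its 3′ end. Sec22a, a relative of the vesicle SNARE Sec22b, had 3.97 under knockout-GFP 2 and 3.02 under control-GFP 1, and Sec22c 4.18 under knockout-GFP 2. Sec22b itself, Sec1, Sec14l3, Sec14l4, Sec14l5 and Sec23ip were marked in none.

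The knockout-GFP and control-GFP groups, as labelled, share the GFP virus and differ in the Rictor genotype. A single member, Copg1, had a peak in the whole knockout-GFP pair and in neither library of control-GFP (1 of 73, 1.37%, against 1.04% of all genes), and 0 members the reverse (0.0914% of all genes), both near the background. Copg1 was 1 of the 12 members marked in both knockout-GFP libraries (8.33%), against 227 of 1447 over all genes (15.7%). Leaving out control-GFP 1 gave 11 knockout-only members (15.1%, against 5.6% of all genes), which is 91.7% of the members and 84.7% of the genes that could then have the pattern. Leaving out knockout-GFP 1 gave 9 (12.3%, against 5.54%), or 27.3% of such members and 32.0% of such genes. Leaving out either control-GFP 2 or knockout-GFP 2 gave 2 (2.74%, against 1.08% and 1.94%). These were 16.7% and 14.3% of such members, against 16.3% and 23.6% of such genes. Control-only members numbered 1 or 3 when control-GFP 1 or 2 was left out (1.37% and 4.11%, against 0.338% and 4.40% of all genes), and 2 when knockout-GFP 2 was (2.74%, against 0.585%). Between the libraries labelled knockout-GFP 2 and control-GFP 1, 23 members were shared, which is 69.7% of the members marked in the library labelled knockout-GFP 2 and 85.2% of those in that labelled control-GFP 1 (67.1% and 69.6% over all genes). Over these 23 members the score percentiles had a Pearson r of 0.64 and a Spearman rho of 0.59, given as a description across genes of 2 libraries, and 11 of the 23 were higher in the library labelled knockout-GFP 2. Over the 12 members shared by knockout-GFP 1 and 2, which belong to 1 group, r was 0.18 and rho 0.15, and over the 11 shared by knockout-GFP 1 and control-GFP 1 they were 0.56 and 0.57.

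**Figure D5:**
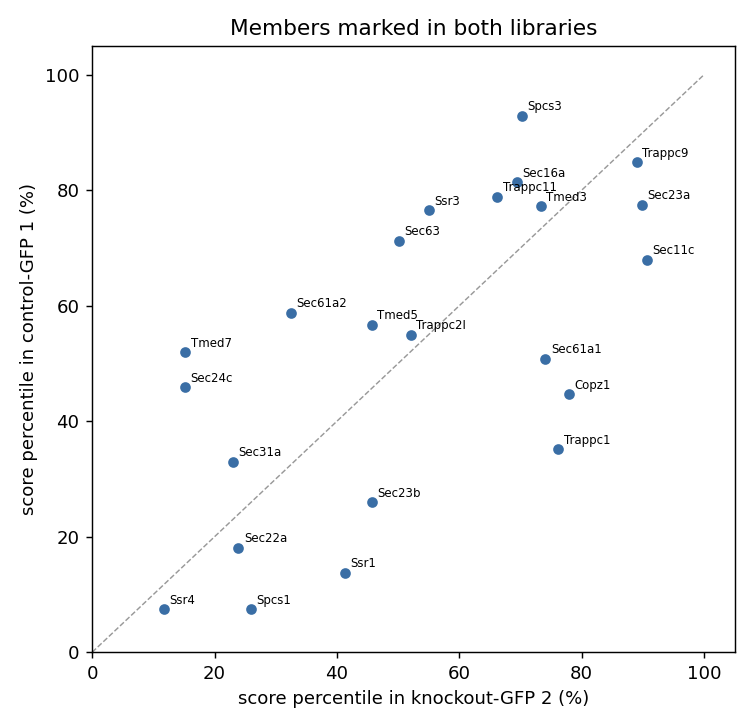
Score percentile of the strongest marking peak in knockout-GFP 2 (x axis, percent) and control-GFP 1 (y axis, percent) for the 23 members marked in both; the dashed line marks equal percentiles. The points lie on both sides of the line, with 11 below it.

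By their labels, the knockout-Acsl4 and knockout-GFP groups share the genotype and differ in the virus. Peaks at Acsl4 did not follow the virus labels, so the comparison is one between labels. No member was marked in both libraries labelled knockout-Acsl4, so 0 were marked only there (0.00914% of all genes). Marked in both libraries of the knockout-GFP group and in none of the knockout-Acsl4 group were 10 members (13.7%, against 5.79% of all genes): Sec61a1, Sec63, Sec11c, Spcs3, Sec23a, Sec23b, Sec31a, Copg1, Trappc1 and Sec14l1. These were 10 of the 12 members marked in both knockout-GFP libraries (83.3%), and over all genes 1267 of 1447 had the pattern (87.6%). Read per gene that could have it, the members' share was thus near the background. The other two were Sec16a and Trappc11, both marked in the library labelled knockout-Acsl4 1. The count was 30 when knockout-GFP 1 was left out (41.1%, against 15.9% of all genes), which is 90.9% of the members and 92.1% of the genes that could then have the pattern. The knockout-Acsl4-only count was 1, Copg2, when knockout-Acsl4 2 was left out (1.37%, against 0.123%). That was 1 of the 3 members that could have it (33.3%, against 12.1% of such genes). The lists labelled knockout-Acsl4 1 and 2 were the shortest and the longest, at 525 and 5874 peaks, and both marked fewer of all genes than any other list. The part of these low shares in the difference was not tested.

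Set against wild-type islets, the knockout-Acsl4 group differs by label in both genotype and virus. Tmed3 and Trappc9 were marked in both control-GFP libraries but not in the knockout-Acsl4 pair (2 of 73, 2.74%, against 1.32% of all genes), and 0 members the reverse (0.00457%). They were the only members marked in both control-GFP libraries; the pattern held for 289 of the 348 genes so marked (83.0%). The control-only count became 4 when control-GFP 1 was left out (5.48%, against 1.71% of all genes). It became 25 when control-GFP 2 was left out (34.2%, against 15.3%), which is 92.6% of the members and 92.0% of the genes that could then have the pattern. Leaving out knockout-Acsl4 1 or 2 gave 1 knockout-Acsl4-only member, Trappc3 or Copg2 (1.37%, against 1.06% or 0.128%). The 3 comparisons share libraries pairwise, and no test was made, since the smallest two-sided p that an exact permutation of 2 against 2 libraries allows is 0.333.

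Peaks lay at the starts of the genes. Of the 62 marking peaks at members with a known strand, 59 (95.2%) were at the start, against 94.9% over all genes. The median midpoint lay at -36 bp from the start (range -252 to 908), against -28 bp over all genes. Of the 40 marked members, 13 (32.5%) were marked solely by peaks that also lay at another gene's end, against 30.7% of all marked genes, and such a peak cannot be assigned to either gene. Just inside the 1000 bp limit were Copz2 at 835 bp, Sec16a at 811 bp and Sec24b at 806 bp. Among members unmarked in a library, the nearest peaks outside it were those of Trappc6b at 1129 bp and Sec24d at 2109 bp in the library labelled knockout-Acsl4 2 and of Sar1a at 2139 bp in that labelled control-GFP 1. Sec23a, marked in the library labelled knockout-GFP 2, had a further peak there at 1316 bp.

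Promoter sequence was compared over the 60 members in the RefSeq table. Arcn1, Sec11c, Sec14l4, Sec61a1, Spcs3, Ssr2, Tmed2, Tmed7, Tmed11, Trappc1, Trappc4, Trappc8 and Trappc9 had no entry. Over 300 bases, from 250 before to 50 after the start, CpG pairs had a median of 23.0 in the 21 members marked in 2 or more libraries and 16.5 in the 30 marked in none. Over all genes these medians were 25 and 8. GC content followed, at 63.3% and 56.5% in those members and 63.7% and 53.3% over all genes. Unmarked members thus had more CpG pairs than unmarked genes in general, and the part of base composition in the member share was not tested.

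Motifs were searched on both strands. The ER stress element (CCAAT, any 9 bases, CCACG), bound by NFY with ATF6 or XBP1, was in 0 of 60 member promoters and 0.16% of all. Its CCACG part alone was in 34 (56.7%, against 37.1%). The XBP1 site TGACGTGG, which holds CCACG on its other strand, was in 5 promoters, those of Copb1, Copb2, Sec16b, Sec23a and Sec24d (8.33%, against 0.669%). Of these 5 genes, Sec23a was marked, in 3 libraries, and the other four were marked in none. CCGGAAG was in 19 (31.7%, against 11.9%), GGGCGG in 37 (61.7%, against 46.3%), CCAAT, which also forms part of the ER stress element, in 23 (38.3%, against 39.2%) and AAGATGGC in 5 (8.33%, against 3.21%), those of Sec16a, Spcs2, Ssr3, Ssr4 and Tmed9. The cyclic AMP element TGACGTCA was in Cope alone (1.67%, against 2.33%), the NRF1 site (GCGC, any 3 bases, GCGC) in Sec24d and Sec31b (3.33%, against 3.02%), and the CHOP and ATF4 site TGATGNAA in none (3.68% of all). A match describes letters and does not show binding.

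Partner genes of the pathway were a separate list of 68 symbols, of which 67 matched. They were also marked above the shares of all genes in every library but that labelled knockout-Acsl4 2. The libraries labelled knockout-Acsl4 1 and 2 marked 2 and 0 (2.99% and 0.0%, against 1.02% and 1.58% of all genes). Those labelled knockout-GFP 1 and 2 marked 14 and 31 (20.9% and 46.3%, against 8.20% and 17.3%). Those labelled control-GFP 1 and 2 marked 29 and 3 (43.3% and 4.48%, against 16.7% and 2.00%). In 3 or more libraries were 10 of them (14.9%, against 6.52% of all genes). They include the oligosaccharyltransferase subunits Stt3a, Stt3b, Dad1 and Tusc3, which act beside the channel, the signal recognition particle receptor subunit Srpr, the ER membrane complex subunit Emc10, the ER exit factors Tfg and Yif1b, the GTPase Arf4 and the Golgi matrix protein Golga2. Stt3a was marked in 5 libraries, all but that labelled knockout-Acsl4 2. The lists differed. Of 10 signal recognition particle genes, 1 and 1 were marked under knockout-GFP 1 and 2, and 3 under control-GFP 1. In no library were 7 of these 10, against 75.5% of all genes. Under knockout-GFP 2, 7 of 12 oligosaccharyltransferase, 3 of 10 ER membrane complex, 10 of 16 ER exit and 10 of 19 retrieval genes were marked.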

How the data were processed

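ATAC-seq peak lists of 6 islet libraries were analysed, 1 list per library, with chromosome, start, end, name and a score for each peak. The score deposited by the authors has no header and was read as the −log10 of a q-value, since no list holds a value below 1.30, which is where a q of 0.05 would fall. Per the submitters' processing notes, the tools were MACS2 2.1.1, BWA 0.7.10, Trimmomatic, FastQC and SAMtools; the builds listed there, hg38 and GRCh38, are human although the samples are mouse, and coordinates were read as GRCm38 and are given 1-based.

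Genes, gene ends and promoters came from RefSeq tables of GRCm38.p6. Members, steps and partner lists were chosen with earlier results of these data known. A peak marked a gene when it overlapped the window at either gene end by at least 1 bp. Counts were compared with those over all protein-coding genes, and no set test was made. Named genes are members marked in 3 or more libraries, those with a group pattern and the 10 with the highest mean percentile. Also named are any marked in either knockout-Acsl4 library or in control-GFP 2, and those nearest the window's edge. Genes sharing a marking peak and partners in 3 or more libraries are named too. Marking was tested on simulated data. Alternatives were an overlap of 50% of the peak, the better 50% of each list, equal lengths of 525 peaks, windows of 3000 and 500 bp, gene starts only, leaving out each library and, added after the data were seen, peaks on RefSeq promoters. Replicate numbers name libraries only. The shares over all genes without each library, and those of peaks inside genes, were added after the data were seen. Calculations used Python 3.11.15, pandas 2.3.3 and SciPy 1.17.1.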

Additional observations from a re-analysis of the deposited data

Results flagged for a closer look

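Peaks inside members, more than 1000 bp from both gene ends, numbered 1 and 5 in the libraries labelled knockout-Acsl4 1 and 2. Those labelled knockout-GFP 1 and 2 had 0 and 1, and the control-GFP pair 1 and 0. The 5 exceeded both control libraries, in data that the gene-end counts do not use. They are 6.85% of members, against 7.89% of all genes with such a peak in that library, so the count is not above the background. Over all genes the share was 0.489% in the library labelled knockout-Acsl4 1, 1.64% and 2.92% under knockout-GFP 1 and 2, and 3.36% and 2.02% under control-GFP 1 and 2. They lay in Copb2 (score 1.54), Sec22c (2.66), Tmed3 (2.15), Trappc6b (1.54) and Trappc9 (1.54), each called in that library alone. The library labelled knockout-Acsl4 2 also had the longest list, of 5874 peaks, and the part of list length in the 5 was not tested.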

How the results depend on the processing

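With an overlap of 50% of the peak, or a window of 500 bp, every count stayed within 1.5 times its value. In this paragraph, shares over all genes are given only at 525 peaks. The other counts therefore do not show how members compared with all genes under those settings. With a window of 3000 bp the library labelled knockout-Acsl4 2 marked 4 members and the control-only count against knockout-Acsl4 was 1. With the better 50% of each list, the libraries labelled knockout-Acsl4 1, knockout-GFP 1 and 2 and control-GFP 1 and 2 marked 0, 5, 16, 14 and 2 members, 5 were marked in 3 or more libraries, and knockout-GFP-only members numbered 4 against knockout-Acsl4 and 0 against control-GFP, with 1 control-only member against knockout-Acsl4. At 525 peaks per list the counts were 3 and 0 for knockout-Acsl4 1 and 2 (4.11% and 0.0%, against 1.02% and 0.0868% of all genes). They were 2 and 4 for knockout-GFP 1 and 2 (2.74% and 5.48%, against 1.90% and 1.92%). For control-GFP 1 and 2 they were 1 and 1 (1.37% each, against 1.91% and 0.877%). At that length 0 members were in 3 or more libraries and every pattern count was 0. These settings use fewer peaks by construction, except for knockout-Acsl4 1 at 525 peaks, its full list. With gene starts only, for genes of known strand, the libraries labelled knockout-GFP 1 and control-GFP 2 marked 9 and 2 members, 8 were in 3 or more libraries, and the patterns against knockout-Acsl4 held 6 knockout-GFP-only members and 1 control-only member. With peaks on RefSeq promoters these counts were 9, 1, 7, 6 and 0. Strand was read from the promoter entries, so both settings leave out the 13 members without an entry, whatever their peaks. Among those left out are Sec11c, Sec61a1, Spcs3, Trappc1 and Trappc9, which the main rule marked in 3 or more libraries. The lower counts therefore do not show that peaks lay away from the gene starts.

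Leaving out each library in turn, members in 3 or more libraries ranged from 2 to 13. Knockout-GFP-only members ranged from 2 to 11 against control-GFP and from 10 to 30 against knockout-Acsl4, and control-only members from 0 to 3 against knockout-GFP and from 2 to 25 against knockout-Acsl4. The knockout-Acsl4-only count ranged from 0 to 1 in both comparisons. Pairing the libraries by replicate number, as a replicate block, gives the same pattern counts, since each already asks for every library: 1 and 0 for knockout-GFP against control-GFP, 0 and 10 for knockout-Acsl4 against knockout-GFP, and 0 and 2 for knockout-Acsl4 against control-GFP. Read depth is unknown, so what a missing peak means limits every count. List length does not stand in for it throughout: the longest list, labelled knockout-Acsl4 2, marked 1 member, and at 525 peaks it marked 0.0868% of all genes, against 1.90% and 1.92% under knockout-GFP 1 and 2 and 1.91% under control-GFP 1.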
